A study of Mus musculus with 8 samples.

Results

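The laminin chain genes described here are Lama1, Lama2, Lama3, Lama4, Lama5, Lamb1, Lamb2, Lamb3 and Lamc1, 9 of the 26667 genes in the count table, taken by their symbols. The family was selected on the measured Lama5 counts of KPH2 against KP in these same tumours, so the difference of Lama5 is given as a description without a test, and the other 8 chains were asked whether Lama5 differed alone. A further chain gene, Lamc3, is given beside them.

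RNA was taken from formalin-fixed, paraffin-embedded (FFPE) sections of 8 undifferentiated pleomorphic sarcomas (UPS), 1 stranded library per tumour, after removal of ribosomal RNA. KP tumours 5 to 8 arose in KP mice, whose alleles include Trp53 fl/fl, and KPH2 tumours 1 to 4 in mice that carried Epas1 fl/fl besides. Both groups thus share the KP alleles and the loss of Trp53, and Epas1, which encodes HIF-2α, is removed in KPH2 alone. The mice, of both sexes and of a mixed 129/C57BL/6 background, were at least 8 weeks old when an adenovirus carrying Cre was injected into hind limb muscle, and were killed 7 weeks later or at the largest tumour size allowed. No cell type restriction of Cre is given in the sources used here, and host cells it did not reach keep unrecombined alleles. The study's methods state that principal components of the raw counts marked a knockout tumour as a technical outlier, which was excluded, while its Results give other group sizes. KPH2 1, the tumour missing from the smaller deposited table of normalized values, was taken to be that tumour and left out of the comparison, and its values are given apart. With KPH2 1 included, edgeR called 1 gene in place of 292.

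Laminins are trimers of 1 α, 1 β and 1 γ chain that polymerise into the sheet of a basement membrane, where nidogens link them to the network of type IV collagen. The α chain carries the globular end that binds integrins and dystroglycan on cells, so the α chain sets which receptors a laminin engages. In muscle, the α chain of the fibre's basement membrane is the product of Lama2, whereas those of Lama4 and Lama5 are best known from the basement membranes of vessels, and that of Lama5 also from epithelia.

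The windows around a start site are shown for Lama5, the chain with the highest fold change, and for Lamb1, the most abundant β chain. They come from RefSeq on GRCm38.p6 and hold 250 bases before and 50 after the start site. Both strands were searched for ACGTG and GCGTG, the core letters that HIF proteins bind, and for GGGCGG, the core of a GC box. Capitals mark each match, read as written or as its reverse complement, and no matches overlapped.
Lama5, chr2:180225810-180226109, minus strand: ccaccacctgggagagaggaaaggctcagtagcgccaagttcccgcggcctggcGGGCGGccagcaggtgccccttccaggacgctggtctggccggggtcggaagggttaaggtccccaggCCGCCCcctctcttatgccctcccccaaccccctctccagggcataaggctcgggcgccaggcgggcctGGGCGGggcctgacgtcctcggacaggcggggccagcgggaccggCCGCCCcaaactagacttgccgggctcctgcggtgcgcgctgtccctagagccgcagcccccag
Lamb1, chr12:31265043-31265342, plus strand: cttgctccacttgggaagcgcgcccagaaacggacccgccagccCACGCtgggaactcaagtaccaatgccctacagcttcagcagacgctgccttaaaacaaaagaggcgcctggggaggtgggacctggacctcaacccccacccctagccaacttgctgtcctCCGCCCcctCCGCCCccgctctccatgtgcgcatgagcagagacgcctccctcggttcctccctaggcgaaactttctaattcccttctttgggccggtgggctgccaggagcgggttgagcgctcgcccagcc
The Lama5 window held 4 GGGCGG matches and no ACGTG or GCGTG, and the Lamb1 window held 2 GGGCGG matches and 1 GCGTG. Among the 32851 windows of the table, 35.7% held GGGCGG at least once, 5.5% held it 4 or more times, and 43.8% held ACGTG or GCGTG. The GC content was 72.7% in the Lama5 window and 63.7% in the Lamb1 window, against a median of 52.7% over all windows, of which 6.1% were at or above Lama5. Of the members, 5 of 9 had a window. That of Lama2 held 1 GGGCGG match, that of Lamb2 none, and the pair of windows of Lamb3 held 1 GCGTG match in all. These matches describe letters only, since no binding was measured.

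Total counts ran from 6463221 to 13155510 per tumour, and the levels below are counts per 1000000 counts of the library size after TMM scaling (CPM). Epas1, the deleted gene, lay between 59.2 and 86.9 CPM in KP tumours and between 32.6 and 53.4 CPM in all 4 KPH2 tumours, where KPH2 1 was the lowest. The groups did not overlap, as for the 4.46% of all genes that were lower without overlap over the 8 tumours. The log2 fold change over KP 5 to 8 and KPH2 2 to 4 was −0.81 (edgeR adjusted p = 0.0742, DESeq2 adjusted p = 0.0118), and without KP 5 the edgeR adjusted p was 0.0442. Adjusted p-values named edgeR come from the quasi-likelihood F-test of edgeR, adjusted by Benjamini-Hochberg over all genes tested, and SE is the standard error of a log2 fold change. Any pair of libraries differed by more than sampling noise, which by itself does not show that they come from separate tumours. Each library was taken as a separate tumour. Because the sections are bulk tissue, more or fewer cells of a type and more or less RNA per cell cannot be told apart.

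Lama5, the α5 chain gene on the minus strand of chromosome 2 (180176373 to 180225904 on GRCm38), had levels of 34.9, 43.3, 47.7 and 35.4 CPM in KP 5, 6, 7 and 8. The levels were 440.3, 360.1 and 527 CPM in KPH2 2, 3 and 4, with 25.6 CPM in KPH2 1. The lowest of KPH2 2 to 4 was far above the highest KP tumour, whereas KPH2 1 lay below all KP tumours. The means were 40.3 ± 6.26 CPM (SD, n = 4) and 443 ± 83.7 CPM (SD, n = 3), a ratio of 11.0, and the fitted log2 fold change was 3.46 (95% interval 3.02 to 3.90, SE 0.19). With KPH2 1 included it was 3.07 (95% interval 1.42 to 4.72), and this value rests on KPH2 2 to 4. On the authors' rlog scale, which shrinks differences, the group means differed by 2.26 over the 7 tumours.

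**Figure D1:**
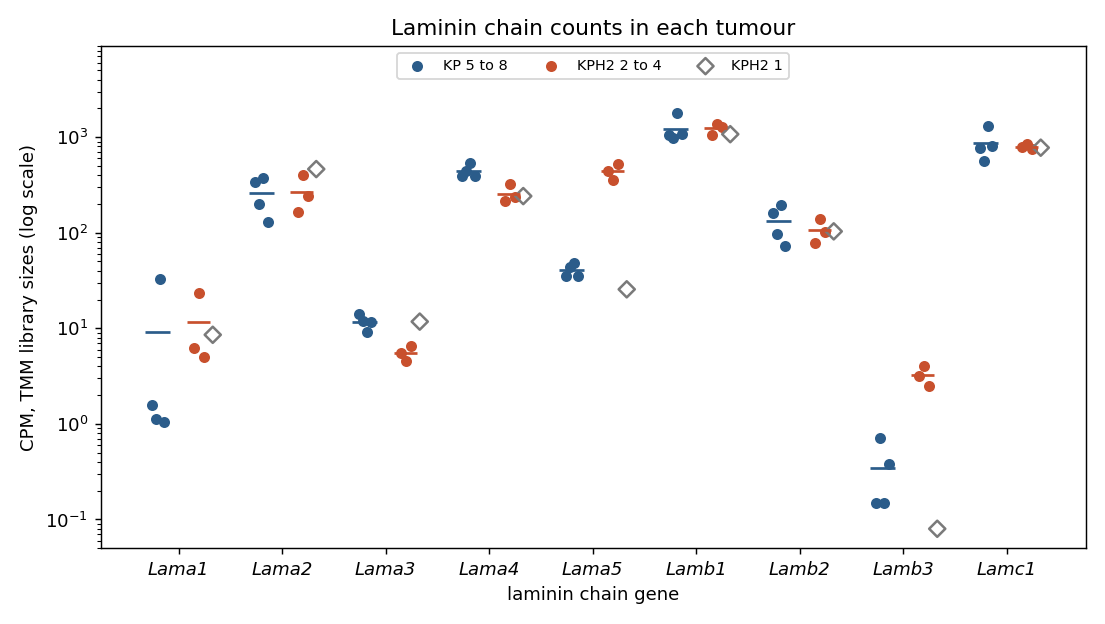
Level of each of the 9 chain genes in each tumour, in CPM on a log scale, with a point per tumour, a horizontal bar at the mean of KP 5 to 8 and of KPH2 2 to 4, and an open diamond for KPH2 1. The points of Lama5 and Lamb3 in KPH2 2 to 4 stand above all KP points, with KPH2 1 below them, and those of Lama3 and Lama4 stand below.

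Over the 7 tumours all 9 chains passed edgeR's filter on low counts, and over all 8 tumours 8 did, all but Lamb3. Of the 8 chains other than Lama5, 1 was higher in KPH2 at an adjusted p under 0.05 from edgeR, Lamb3, and none was lower. Over all 14867 genes tested, 1.96% passed in either direction, 1.24% higher and 0.72% lower, and nothing is read from the members' count since the same contrast chose the family. The call of Lamb3 is no support either, because the gene passed the filter on low counts only through the tumours where it was high. The 8 fold changes were positive for 4 and negative for 4, with a median of −0.05 on the log2 scale beside −0.02 over all genes.

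Lamb3, on the plus strand of chromosome 1 (193294353 to 193343878), encodes the β3 chain, which joins the α3 chain in the laminin of epithelial anchoring structures. It had 2, 5, 1 and 5 raw counts in KP 5, 6, 7 and 8, 35, 40 and 22 counts in KPH2 2, 3 and 4, and 1 count in KPH2 1. In CPM the KP tumours lay between 0.148 and 0.707, and KPH2 2 to 4 between 2.48 and 4.00. The groups were apart, as for 8.73% of all genes tested that were higher without overlap, again without KPH2 1, at levels close to the filter on low counts. Its log2 fold change was 3.23 (95% interval 2.03 to 4.43, SE 0.52, edgeR adjusted p = 0.0270), an interval that includes the value of Lama5. The adjusted p from edgeR was above 0.05 in 5 of the 7 fits that left out 1 tumour (KP 7, KP 8, KPH2 2, KPH2 3 or KPH2 4), at 0.0544 to 0.0907. Over all 8 tumours Lamb3 did not pass edgeR's filter and was not tested.

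Lama3, the α3 chain gene and the partner of Lamb3, was at 14.2, 12.0, 9.04 and 11.7 CPM in KP 5 to 8, at 5.49, 4.60 and 6.54 CPM in KPH2 2 to 4, and at 11.7 CPM in KPH2 1. KPH2 2 to 4 lay below all KP tumours and KPH2 1 lay among them, and 8.15% of all genes tested were lower without overlap over the 7 tumours. The log2 fold change of Lama3 was −1.09 (95% interval −1.64 to −0.53), which did not pass with edgeR (adjusted p = 0.0646) and did with DESeq2 (adjusted p = 0.00461).

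Lama4, the α4 chain gene on the plus strand of chromosome 10 (38965515 to 39110188), was the other chain whose groups were apart. It was at 392, 446, 530.4 and 394 CPM in KP 5, 6, 7 and 8, at 212, 323 and 237 CPM in KPH2 2, 3 and 4, and at 242 CPM in KPH2 1. All 4 KPH2 tumours were below all 4 KP tumours, so that Lama4, unlike Lama5, Lamb3 and Lama3, had KPH2 1 with its group. That share of all genes was 4.46%, as above. The KP mean was 441 ± 64.9 CPM (SD, n = 4) against 257 ± 57.8 CPM (SD, n = 3) for KPH2 2 to 4, a log2 fold change of −0.78 (95% interval −1.23 to −0.33). The adjusted p was 0.0861 from edgeR and 0.0120 from DESeq2 over 7 tumours, and 0.125 and 0.00487 over all 8, where DESeq2 called 3.91% of all genes. By DESeq2 over 7 tumours, 3 of the 8 chains passed (Lama3, Lama4 and Lamb3), where 6.97% of all genes did.

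The chains of the most widespread trimers, Lamb1 and Lamc1, were at similar levels in both groups. Lamb1, the β1 chain gene, was at 1043, 989, 1791 and 1069 CPM in KP 5 to 8, at 1052, 1384 and 1286 CPM in KPH2 2 to 4, and at 1074 CPM in KPH2 1. Apart from KP 7, the tumours lay within one range. Its log2 fold change was 0.02 (95% interval −0.54 to 0.58, edgeR adjusted p = 0.979), which leaves room for a level up to 1.49-fold higher. Lamc1, the γ1 chain gene, was at 776, 559, 1296 and 811 CPM in KP 5 to 8, at 782, 850.4 and 749 CPM in KPH2 2 to 4, and at 776 CPM in KPH2 1. KP 7 was again the highest, and the log2 fold change was −0.12 (95% interval −0.73 to 0.49, edgeR adjusted p = 0.868).

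Lamb2, the β2 chain gene known from the nerve-muscle junction and the kidney filter, lay between 72.7 and 195 CPM in KP, between 78.8 and 139 CPM in KPH2 2 to 4, and at 103 CPM in KPH2 1. Its log2 fold change was −0.31 (95% interval −1.13 to 0.51, edgeR adjusted p = 0.707). Lama2, the muscle fibre's α2 chain gene, was at 336, 202, 375 and 131 CPM in KP 5 to 8 and at 165, 399.9 and 245 CPM in KPH2 2 to 4. It was highest in KPH2 1, at 463 CPM, and the groups overlapped (log2 fold change 0.05, 95% interval −0.91 to 1.0, edgeR adjusted p = 0.968).

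Lama1, the α1 chain gene of embryonic basement membranes, was uneven among tumours of 1 group. It was at 1.56, 1.13, 32.9 and 1.06 CPM in KP 5 to 8, at 6.21, 23.4 and 4.96 CPM in KPH2 2 to 4, and at 8.55 CPM in KPH2 1. Each KPH2 tumour was above 3 of the KP tumours and below KP 7. The log2 fold change of 0.37 (95% interval −2.53 to 3.27, edgeR adjusted p = 0.918) became 3.18 without KP 7 (edgeR adjusted p = 0.0901). Lamc3, the γ3 chain gene, had 0 to 19 raw counts in each tumour, where a count of 0 allows up to 3, and a log2 fold change of 1.12 (95% interval −0.66 to 2.89, edgeR adjusted p = 0.506).

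**Figure D2:**
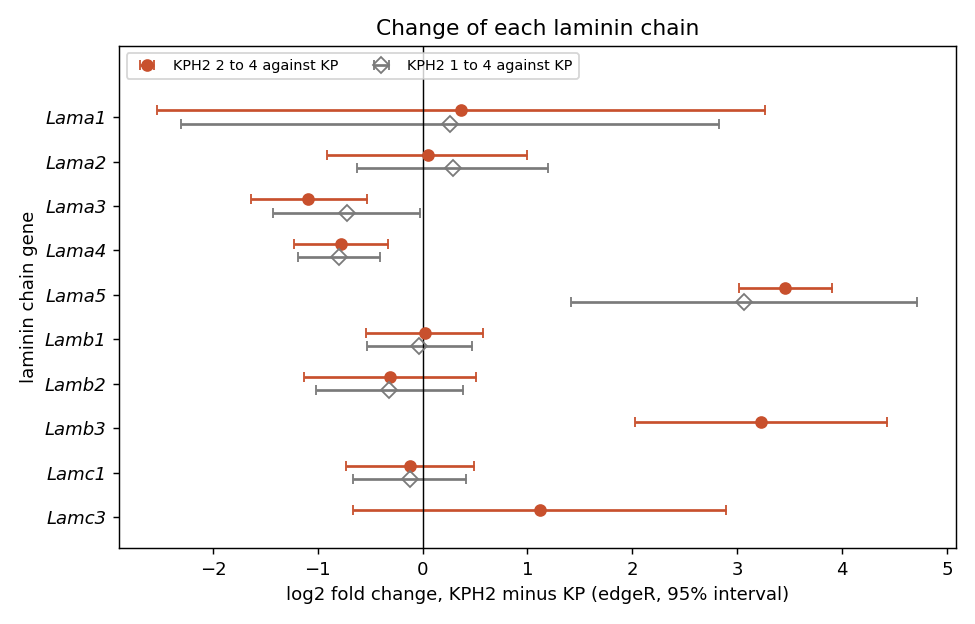
Log2 fold change, KPH2 minus KP, of the 9 chain genes and of Lamc3, with 95% intervals from edgeR, for KPH2 2 to 4 against KP (filled circles) and for all 4 KPH2 tumours against KP (open diamonds). Lama5 and Lamb3 lie near 3, Lama3 and Lama4 lie below 0, the intervals of the others include 0, and Lamb3 and Lamc3 have no open diamond because they were not tested over 8 tumours.

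Levels were compared between chains per length, as CPM per kb of the longest GENCODE vM21 transcript that matched RefSeq. The α chain genes of KP summed to 106 ± 21.8 CPM per kb (SD, n = 4), and those of KPH2 2 to 4 to 111 ± 18.7 CPM per kb (SD, n = 3). The β chain genes summed to 235 ± 73.5 and 234 ± 34.6 CPM per kb in the same order. These sums lay within the spread between tumours of either group, while the make-up of the α sum differed.

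Lama5 made up 2.94%, 3.81%, 3.10% and 3.74% of the α sum in KP 5, 6, 7 and 8, and 42.0%, 24.4% and 41.3% in KPH2 2, 3 and 4, with 2.43% in KPH2 1. Lama4 held 69.8 ± 7.62% of the KP sum (SD, n = 4), 38.1 ± 3.14% of that of KPH2 2 to 4 (SD, n = 3) and 43.3% in KPH2 1. In KPH2 1 the share of Lama2 was the largest of any tumour, at 52.1%, while KP tumours averaged 24.9 ± 7.68% (SD, n = 4) and KPH2 2 to 4 averaged 24.5 ± 6.93% (SD, n = 3). KPH2 1 thus shared a low Lama4 share with its group and a low Lama5 share with KP. A share depends on every chain in the sum, and these are descriptions with no test. Lama3 has a short form, and a shorter length would give it a higher level per kb.

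**Figure D3:**
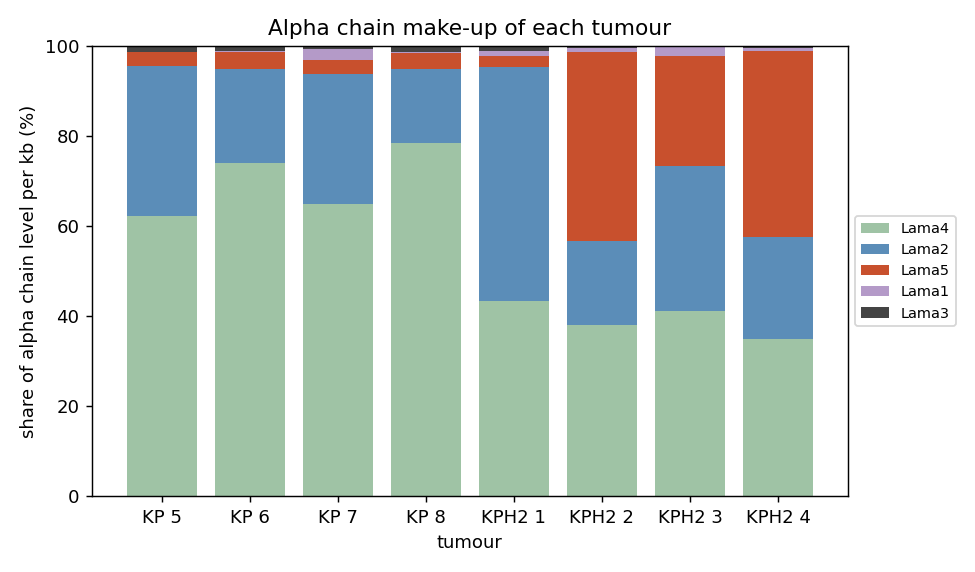
Share of each α chain gene in the summed α chain level, in percent of CPM per kb, 1 stacked bar per tumour. The Lama5 segment is between 2.94% and 3.81% in KP tumours, 2.43% in KPH2 1 and at least 24.4% in KPH2 2 to 4.

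Lamb1 dominated the β sum of every tumour. It held 90.1 ± 2.92% of the β sum of KP (SD, n = 4) and 91.7 ± 1.21% of that of KPH2 2 to 4 (SD, n = 3), and Lamb3 held at most 0.395% in any tumour.

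In order of level per kb, KP tumours had Lamb1 first at 211 ± 65.7 CPM per kb (SD, n = 4), then Lamc1, Lama4, Lama2, Lamb2 and Lama5, the last at 3.54 ± 0.549. Within tumours, Lamc1 was above Lama4 in 3 of 4, and Lama2 was above Lamb2 in 4 of 4 although their ranges across tumours overlapped. The ranges of the lowest chains, Lama3, Lama1, Lamc3 and Lamb3, each overlapped the next. In KPH2 2 to 4 the order again began with Lamb1 and Lamc1. Lama4 at 42.5 ± 9.57 and Lama5 at 38.9 ± 7.35 CPM per kb (SD, n = 3) came next and changed places between tumours, Lama4 being the higher in 1 of 3. Lama2 at 28.1 ± 12.4 was below Lama5 in 2 of 3.

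Across the 8 tumours, log2 CPM of Lama5 had a Pearson r of 0.94 with Lamb3, −0.59 with Lama4 and −0.92 with Lama3. It had r of 0.21 with Lamb1, −0.03 with Lamc1, −0.15 with Lama2 and −0.17 with Lamb2. Lamb1 had an r of 0.85 with Lamc1 and 0.82 with Lama1, and Lama2 of 0.76 with Lamb2. Lama5, Lamb3 and, in the opposite direction, Lama3 set KPH2 2 to 4 apart from the other tumours, whereas Lama1, Lamb1 and Lamc1 were highest in KP 7. These correlations describe 8 libraries in 2 groups, which set much of each value.

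Over the same 8 tumours, the tested genes most like Lama5 were Col18a1 (r = 0.983), Qrfp (r = 0.980), Reln (r = 0.977), Slc44a1 (r = 0.975) and Baiap2l1 (r = 0.975). Col18a1 encodes a collagen of basement membranes and Reln a large secreted matrix glycoprotein. Reln was at 9.04 to 29.9 CPM in KP, 461 to 493 CPM in KPH2 2 to 4 and 5.19 CPM in KPH2 1, with the same tumours high and low as for Lama5. The genes least like Lama5 were Mtap9 (r = −0.988), Twist2 (r = −0.971), Mtus1 (r = −0.963), Abcb1b (r = −0.962) and Emx2os (r = −0.962). Twist2, a mesenchymal transcription factor, was at 4.30 to 13.9 CPM in KP, 0.789 to 1.30 CPM in KPH2 2 to 4 and 16.5 CPM in KPH2 1. In each of these genes KPH2 1 lay nearer to the KP range than to that of KPH2 2 to 4, although for Mtus1 it was below all KP tumours, at 72.2 CPM against 76.3 to 85.2 CPM. Because the genes were picked by r with Lama5 over tumours that include KPH2 1, its place in them, as in Reln, is no separate result.

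Genes next to Lama5 had small fold changes. Of the 4 tested genes within 100 kb, none passed with edgeR over the 7 tumours. Adrm1, a proteasome subunit gene on the opposite strand that ends 89 bases from the end of Lama5, had a mean of 19.5 ± 3.33 CPM in KP (SD, n = 4) and of 25.8 ± 2.73 CPM in KPH2 2 to 4 (SD, n = 3) (log2 fold change 0.40, edgeR adjusted p = 0.313). The log2 fold changes were −0.02 for Osbpl2, 0.23 for Rps21 and −0.07 for Cables2. The RefSeq span of Lama5 also holds Mir7005 and Gm52542, which have no row in the count table, and reads from Gm52542 cannot be told apart from reads of Lama5 here.

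Laminins act through receptors, and 2 of 9 receptor genes rose in KPH2 2 to 4 with edgeR while none fell, with 8 of 9 fold changes above 0 and a median of 1.03 on the log2 scale. Over all genes tested, 1.24% were higher and 0.72% lower. Itga7, the integrin α7 subunit of muscle, was at 17.7, 38.1, 29.2 and 44.8 CPM in KP 5 to 8, at 156, 122 and 139 CPM in KPH2 2 to 4, and at 6.47 CPM in KPH2 1. The log2 fold change was 2.10 (edgeR adjusted p = 0.0191, SE 0.29). Itgb4, the integrin β4 subunit that binds the α3 and α5 chain laminins in epithelia, was at 16.3, 10.2, 8.60 and 30.3 CPM in KP 5 to 8 and at 80.6, 70.2 and 169 CPM in KPH2 2 to 4. KPH2 1 was at 7.03 CPM, below all KP tumours, and the log2 fold change was 2.68 (edgeR adjusted p = 0.0407, SE 0.49). The edgeR adjusted p of Itga7 was 0.0562 without KP 7 and 0.0659 without KPH2 2, and that of Itgb4 was 0.0590 to 0.0959 without each of the other tumours than KP 8.

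Neither Itga3 nor Itga6, further α subunits of laminin-binding integrins, passed with edgeR in this comparison. Itga3 had a log2 fold change of 2.63 (edgeR adjusted p = 0.0820), with KPH2 2 to 4 at 167 to 291 CPM, KP at 12.1 to 84.5 CPM and KPH2 1 at 32.3 CPM. Without KP 7 it was 3.52 (edgeR adjusted p = 0.0298). Itga6 had 1.03 (edgeR adjusted p = 0.0523) and Bcam, a receptor of the α5 chain, had 1.63 (edgeR adjusted p = 0.0792). These 3 genes passed with DESeq2, which called 5 of 9 receptors and 6.97% of all genes, and no receptor passed with edgeR over all 8 tumours, where 0.00675% of all genes did. With no filter on low counts Itga6 passed (edgeR adjusted p = 0.0407) and Itgb4 did not (edgeR adjusted p = 0.0616). Itgb1, the β subunit shared by most of them, had 0.20, and Dag1, dystroglycan, had 0.50 on the log2 scale.

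Among 15 other basement membrane genes, 1 rose with edgeR and none fell (1.24% and 0.72% of all genes did), and the median log2 fold change was 0.00. Col18a1 was at 172, 259.6, 227 and 145 CPM in KP 5 to 8, at 2026, 1083 and 1273 CPM in KPH2 2 to 4, and at 124 CPM in KPH2 1 (log2 fold change 2.86, SE 0.29, edgeR adjusted p = 0.00905). The type IV collagen genes were on both sides, at −1.04 for Col4a1 (edgeR adjusted p = 0.158), −0.93 for Col4a2 and 1.86 for Col4a6. With DESeq2, 3 of the 15 passed (Col18a1, Col4a1 and Col4a6), where 6.97% of all genes did. Nid1, the nidogen that binds the γ1 chain, was at 786 to 1348 CPM in KP, 404 to 777 CPM in KPH2 2 to 4 and 484 CPM in KPH2 1 (log2 fold change −0.75, edgeR adjusted p = 0.205). All 4 KPH2 tumours were below all KP tumours, as for Lama4 and for 4.46% of all genes.

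Of 11 genes of the enzymes that build the laminin-binding glycan of dystroglycan, 10 were tested, none passed with edgeR or DESeq2, 1 had an unadjusted p under 0.05 from edgeR (17.8% of all genes did), and the median log2 fold change was −0.01. That gene, named after its values were seen, was Ispd, at 2.97 to 5.89 CPM in KP, 6.39 to 9.69 CPM in KPH2 2 to 4 and 3.52 CPM in KPH2 1 (log2 fold change 0.90, 95% interval 0.22 to 1.58). Their summed level lay between 283 and 333 CPM in KP, between 297 and 320.0 CPM in KPH2 2 to 4, and at 354 CPM in KPH2 1.

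**Figure D4:**
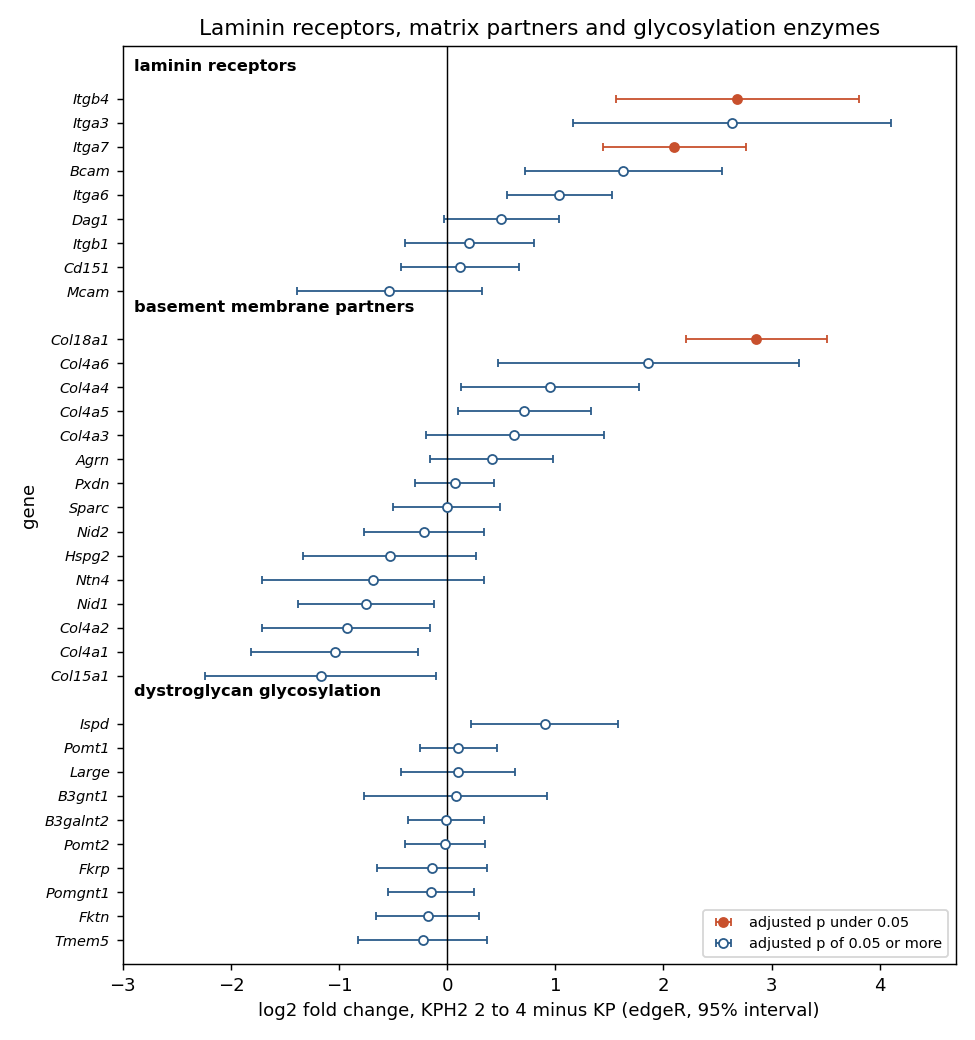
Log2 fold change, KPH2 2 to 4 minus KP, with 95% intervals from edgeR, for each tested gene of the lists of laminin receptors, basement membrane partners and dystroglycan glycosylation enzymes. Filled points have an adjusted p under 0.05 (Itgb4, Itga7 and Col18a1), and among the glycosylation enzymes the interval of Ispd lies above 0 while those of the other 9 include it.

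Markers of other cells moved with these differences. All 30 skeletal muscle markers had a positive fold change, and 23 passed with DESeq2 (6.97% of all genes in either direction). With edgeR 3 passed, Eno3, Myoz2 and Neb (1.24% of all genes were higher). The call of Myoz2 is no support, since it passed the filter on low counts only through KPH2 2 to 4. Myoz2 was at 0.593 to 1.28 CPM in KP and 2.14 to 14.7 CPM in KPH2 2 to 4. The summed muscle level was 2004 to 3586 CPM in KP, 4444 to 20363 CPM in KPH2 2 to 4 and 1557 CPM in KPH2 1. Within KPH2 2 to 4 the tumour with the highest muscle sum, KPH2 3, had the lowest Lama5. Over all 8 tumours, KPH2 1 had both the lowest muscle sum and the lowest Lama5. Fitted beside the muscle marker score, Lama5 had a log2 fold change of 4.05. No receptor, other chain or basement membrane gene passed with edgeR in that fit, where only 3 of all 14867 genes did. The lack of calls is thus not particular to these lists. The log2 fold changes of the genes called without the score were 2.14 for Itga7, 2.92 for Itgb4, 3.22 for Col18a1 and 2.77 for Lamb3 in that fit. Of the genes not called, Bcam was at 0.27 in place of 1.63, Col4a1 at −0.33 in place of −1.04 and Itga3 at 4.64 in place of 2.63. The part of the muscle markers in the chain, Itga7 and Col18a1 values was otherwise not tested.

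Of the epithelial markers, Krt18 rose in KPH2 2 to 4 with edgeR (adjusted p = 0.0183, where 1.24% of all genes were higher). Krt8 was at 0.707 to 2.01 CPM in KP and at 262, 6.90 and 283 CPM in KPH2 2, 3 and 4, and its edgeR call (adjusted p = 0.0299) is no support, since it passed the filter on low counts only through KPH2 2 to 4. Krt5 and Krt14 had 0 counts in all tumours, Epcam was at most 1.41 CPM, and 3 of 8 were tested. The third, Cdh1, was at 0.446 to 2.22 CPM in KP, at 1.501 to 10.8 CPM in KPH2 2 to 4, and at 0.160 CPM in KPH2 1 (log2 fold change 2.37, edgeR adjusted p = 0.130, DESeq2 adjusted p = 0.0152). The summed level was 4.00 to 7.35 CPM in KP, 473, 50.1 and 525 CPM in KPH2 2, 3 and 4, and 58.4 CPM in KPH2 1. In KPH2 1 and KPH2 3 most of the sum was Krt18, at 56.2 and 40.8 CPM, while Krt8 was at 1.44 and 6.90 CPM. The part of these markers in the Lama5 and Lamb3 values was not tested. Endothelial markers, from cells that make the α4 and α5 chains, had a negative fold change in 8 of 10 genes, none passed with edgeR (4 at an unadjusted p under 0.05, as 17.8% of all genes were, and 3 with DESeq2, as 6.97% were), and none was at 0. Their sum was 331 to 639 CPM in KP, 343 to 348 CPM in KPH2 2 to 4 and 247 CPM in KPH2 1. Their part in the Lama4 and Lama5 values was not tested. Among the remaining cell types, 1 of 8 pericyte and smooth muscle markers (Cnn1) fell with edgeR over the 7 tumours. So did 1 of 8 markers of mesenchymal cells (Pdgfra), where 0.72% of all genes were lower. The 6 macrophage markers were all negative with none past the edgeR test (4 at an unadjusted p under 0.05 and 1 with DESeq2, beside the same 17.8% and 6.97% of all genes). Adipocyte markers were low, with sums of 4.23 to 24.7 CPM in KP, 4.00 to 4.85 CPM in KPH2 2 to 4 and 9.11 CPM in KPH2 1, and 1 of 6 was tested. None of these markers passed with edgeR over all 8 tumours.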

How the data were processed

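RNA-seq was done on 8 tumours. The authors aligned reads to GRCm38 with STAR 2.4 and counted them for each RefSeq gene by htseq-count 0.6.1, keeping unique alignments, and deposited raw counts. A second deposited kind of value is log2, from the rlog transformation of DESeq2 1.6, over 7 and over 8 tumours, used here for one comparison. Whether counting used strand was not given in the sources used here.

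Counts were tested with edgeR 4.0.16 in R 4.3.3 (TMM, minimum count 10, minimum total count 15, robust quasi-likelihood test, Benjamini-Hochberg adjustment over all tested genes, threshold 0.05) over KP 5 to 8 and KPH2 2 to 4. DESeq2 1.42.0 was an alternative. CPM used TMM library sizes over 8 tumours, and log2 CPM a prior count of 2. Total counts, 6463221 to 13155510, limit the precision of low genes. On simulated counts of the 7 tumours with 200 genes changed by 2 on the log2 scale, edgeR recovered 92.5% and called 10 unchanged genes. The simulation gave every gene the same relative spread between tumours. The share recovered therefore does not carry over to genes with a wider spread, and Itga3, at 2.63, did not pass in these tumours (edgeR adjusted p = 0.0820).

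Some items of these lists and of the genotypes are not reported here. The members and lists were chosen with earlier results of these data known. Genes named were the chains, Epas1, list genes past the threshold, the 5 genes most and the 5 least correlated with Lama5, and tested genes within 100 kb of it. Itga3, Itga6, Bcam, Itgb1, Dag1, Nid1, Col4a1, Col4a2, Col4a6 and Ispd were named after their values were seen. The alternatives were all 8 tumours, other scaling factors, other filters, DESeq2, a muscle score covariate, the rlog values and leaving out each tumour. Nothing in the labels ties a tumour to a litter or day, so p-values measure the spread between these tumours.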

Additional observations from a re-analysis of the deposited data

Results flagged for a closer look

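Among 18 groups of 4 tumours examined for a sample far from the rest, 2 had one, both in KP 7. Lama1 was at 32.9 CPM in KP 7, where the gap to the next KP tumour made up 0.984 of the range of the 4, and Lamb1 was at 1791 CPM in KP 7, with a gap of 0.900 of the range. Chance gives about 1 in 20 groups. Without KP 7 the log2 fold change was 3.18 for Lama1 and 0.26 for Lamb1 (adjusted p = 0.0901 and 0.507 from edgeR).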

How the results depend on the processing

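The number of genes called over all genes was 292 with edgeR over 7 tumours. It was 1 with edgeR over all 8 tumours (2172 genes at an unadjusted p under 0.05), 3 with the muscle score as a covariate, 1166 with DESeq2, 641 with DESeq2 over all 8 tumours, an alternative added after seeing the data, and 55 to 349 with a tumour left out. Laminin chains other than Lama5 called, 1 with edgeR in the comparison reported, were 0 with edgeR and 1 with DESeq2 (Lama4) over all 8 tumours, 0 at a mean count of at least 50, 0 with the muscle covariate, 3 with DESeq2 and 0 to 1 with a tumour left out. Receptors called, 2, were 0 with edgeR and 2 with DESeq2 (Itga3 and Itgb4) over all 8 tumours, 0 with the muscle covariate, 5 with DESeq2 and 0 to 2 with a tumour left out. Basement membrane partners called, 1, were 0 with edgeR and 1 with DESeq2 (Col18a1) over all 8 tumours, 0 with the muscle covariate, 3 with DESeq2 and 1 in each fit with a tumour left out. Dystroglycan glycosylation genes called were 0 in all 15 alternatives. The cause of these shifts was not tested.

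The log2 fold change of Lama5, 3.46, was 3.07 over all 8 tumours, 3.08 with DESeq2 over all 8, 4.05 with the muscle covariate, 2.26 and 1.97 on the rlog scale over 7 and 8 tumours, and 3.31 to 3.59 with a tumour left out. Values near 0 changed sign. With the muscle covariate Lama2 was at −0.05, Lamc1 at 0.00, Osbpl2 at 0.18 and Rps21 at −0.09. Over all 8 tumours Lamb1 was at −0.03 with edgeR and with DESeq2, and Osbpl2 at 0.00 with edgeR and 0.01 with DESeq2. With a tumour left out Lama1 ran from −0.68 to 3.18, Lama2 from −0.35 to 0.31, Lamb1 from −0.07 to 0.26, Lamc1 from −0.28 to 0.15, Osbpl2 from −0.07 to 0.04 and Cables2 from −0.13 to 0.00. DESeq2 gave Lama1 no p. The median over all genes stayed between −0.03 and 0.01 in these fits.

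No paired analysis was possible because the groups share no replicate numbers. Depth limits Lamb3, Lamc3 and Lama1, with 0 to 234 counts per tumour.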
